A study of Mus musculus with 14 samples.

Results

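A set of 9 regulators of kidney and gonad development was followed through ChIP-seq peak lists of RNF2 and BAP1 in mouse embryonic stem cells. The genes were chosen by name, but with earlier results of these data known, so their shares beside all genes are descriptive only. They are Wt1, Osr1, Osr2, Emx2, Nr5a1, Nr0b1, Sall1, Gdnf and Ret, 9 of the 21775 protein-coding genes of the RefSeq table for GRCm38. A peak was counted for a gene where it overlapped, by at least 1 bp, the gene span plus 5 kb on each side. RNF2 ChIP had been made in BAP1 knockout cells (2 libraries), in RNF2 knockout cells (1 library) and in wild-type cells (2 libraries). BAP1 ChIP had been made in cells whose only BAP1 has the C91A change at its catalytic cysteine, opposite a null allele (1 library), and in BAP1 knockout cells as the control (1 library). Each of the 7 ChIP libraries had its own input, which makes 14 samples. All cells were of C57BL/6 background, derived at E3.5-4.5, and had received 100 nM 4-hydroxytamoxifen and the caspase inhibitor emricasan at 10 µM for 4 days, wild type and controls included. C91A cells had in addition been crosslinked with 2 mM disuccinimidyl glutarate. The peak lists hold no expression values, so the labelled cell type could not be checked against marker genes, and nothing in the labels says that replicates came from separate cultures.

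RNF2, also called RING1B, is the ubiquitin ligase subunit of Polycomb repressive complex 1, which marks histone H2A at CpG-rich promoters of developmental genes and helps to keep them silent in stem cells. BAP1 is the catalytic subunit of the deubiquitinase that takes this mark off. The 9 genes act at successive steps of urogenital development. Osr1 marks the intermediate mesoderm from which kidney and gonad arise, and Wt1, Emx2 and Sall1 are needed in the tissue that forms from it. Nr5a1 (SF-1) directs gonad, adrenal and steroid-hormone genes, and Nr0b1 (DAX1) is an X-linked partner that represses its targets and is also a known gene of the pluripotent state. Gdnf is the growth factor by which kidney mesenchyme attracts the ureteric bud, and Ret is its receptor on the bud.

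The libraries fell into an unequal pair of replicates. The second RNF2 libraries held 139 M tags (BAP1 knockout) and 149 M (wild type), whereas the first held 54.1 M and 58.4 M. They also listed more peaks, 39872 and 28770 against 7946 and 4038 in the same order, and had been called with another extension length. Depth, calling settings and replicate number therefore cannot be told apart, and genotypes are set side by side within each replicate number. In RNF2 knockout cells 119 M tags gave 0 peaks. The BAP1 library of C91A cells held 415 M tags and 2395 peaks, and that of BAP1 knockout cells 32.5 M tags and 144 peaks.

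RefSeq promoter sequences (GRCm38.p6) matched 4 of the 9 genes. Only these 4 could be shown, since Wt1, Osr1, Osr2, Nr5a1 and Ret had no entry. RNF2 had a wide domain at Emx2 and Gdnf, a weak one at Sall1 and a small peak of the deeper libraries at Nr0b1. Each sequence is the 250 bases before the outermost annotated start, 5′ to 3′ on the gene's strand, with the dinucleotide CG, the target of CpG-island binding proteins, in capitals. They lie at chr19:59458440-59458689 (Emx2, plus strand), chr15:7809798-7810047 (Gdnf, plus strand), chr8:89044163-89044412 (Sall1, minus strand) and chrX:86191525-86191774 (Nr0b1, plus strand).
Emx2: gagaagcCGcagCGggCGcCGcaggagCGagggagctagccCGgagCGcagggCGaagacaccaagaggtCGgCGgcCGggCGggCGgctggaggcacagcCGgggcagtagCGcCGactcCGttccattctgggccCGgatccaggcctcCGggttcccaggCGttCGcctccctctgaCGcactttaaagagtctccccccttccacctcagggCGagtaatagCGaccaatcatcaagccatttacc
Gdnf: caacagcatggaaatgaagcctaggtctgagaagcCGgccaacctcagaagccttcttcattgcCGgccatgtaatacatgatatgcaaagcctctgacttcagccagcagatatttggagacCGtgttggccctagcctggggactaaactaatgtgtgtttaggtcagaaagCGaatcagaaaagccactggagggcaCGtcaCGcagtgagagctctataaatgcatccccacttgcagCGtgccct
Sall1: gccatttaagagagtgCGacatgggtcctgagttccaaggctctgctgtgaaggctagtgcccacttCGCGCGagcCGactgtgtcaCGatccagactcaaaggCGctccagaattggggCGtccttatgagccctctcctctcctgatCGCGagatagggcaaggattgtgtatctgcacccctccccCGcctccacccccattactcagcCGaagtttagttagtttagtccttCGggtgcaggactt
Nr0b1: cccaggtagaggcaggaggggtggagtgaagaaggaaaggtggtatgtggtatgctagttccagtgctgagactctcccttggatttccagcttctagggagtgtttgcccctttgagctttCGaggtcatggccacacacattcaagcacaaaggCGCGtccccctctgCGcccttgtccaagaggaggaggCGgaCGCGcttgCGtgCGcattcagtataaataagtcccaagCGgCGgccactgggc

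CG occurred 24 times before Emx2, 7 times before Gdnf, 13 times before Sall1 and 11 times before Nr0b1. Since CG reads the same on both strands, 1 count serves both. Of the 32851 promoters in the table, 92.1% hold at least 1 CG in this window, and their median is 6. At least as many as at Emx2 occur in 12.0% of all promoters, at Sall1 in 31.5%, at Nr0b1 in 35.6% and at Gdnf in 46.3%. Gdnf has a second annotated start with 14 CG before it. Sall1 has 2 further starts with 25 and 30. In order of CG before the outermost start the 4 genes ran Emx2, Sall1, Nr0b1 and Gdnf, whereas in RNF2-covered length Gdnf stood second. By the start with most CG of each gene, the order was Sall1, Emx2, Gdnf and Nr0b1. An RNF2 peak lay over the Emx2 window and over both Gdnf windows in all 4 libraries. Over the outermost Sall1 window one lay in the second BAP1 knockout library and in both wild-type libraries, and over the Nr0b1 window in the second wild-type library. BAP1 lay over the Emx2 window alone among the 7 starts of these genes. Of all promoters with 20 or more CG 4.12% had a BAP1 peak over this window, of those with 10 to 14 CG 2.44%, and of those with 5 to 9 CG 0.582%. Over all promoters with 20 or more CG, an RNF2 peak lay over 30.6% (first library) and 82.3% (second) in BAP1 knockout, and over 15.5% and 71.0% in wild type. With 4 or fewer the shares were 1.69% and 5.33% in BAP1 knockout, and 0.679% and 3.42% in wild type.

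**Figure D1:**
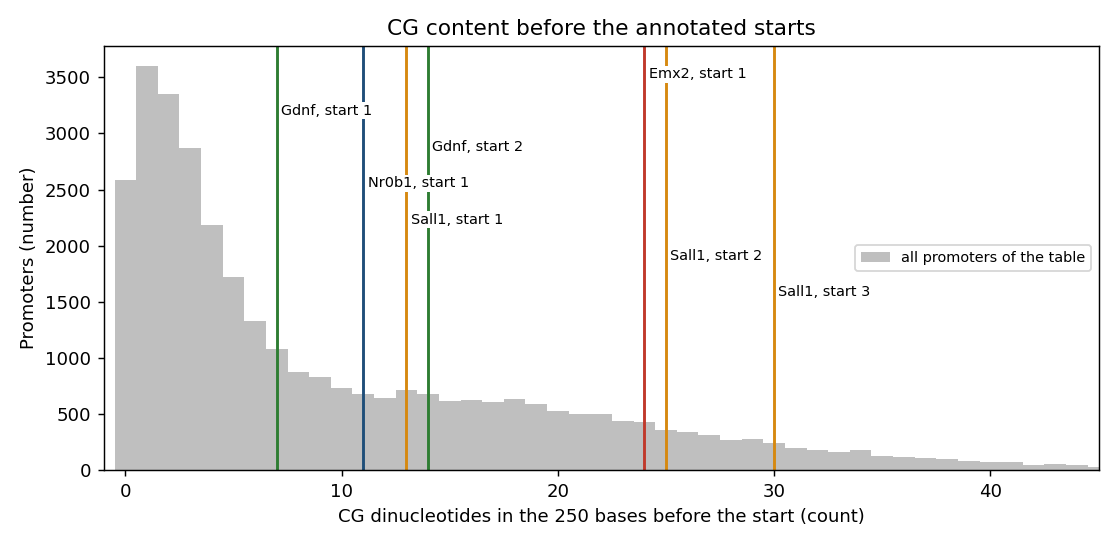
Number of promoters (vertical axis) by the count of CG dinucleotides in the 250 bases before the start (horizontal axis, shown to 45), for all 32851 promoters of the RefSeq table in grey. Coloured lines mark the annotated starts of the 4 matched genes, from 7 CG at the outer Gdnf start to 30 CG at the innermost Sall1 start.

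RNF2 was found at nearly all of the 9 genes, and at the same genes in both genotypes. In the first libraries 8 of 9 held a peak in BAP1 knockout (29.6% of all genes did) and the same 8 in wild type (14.5% of all genes). In the second libraries all 9 held one in BAP1 knockout (66.5% of all genes) and all 9 in wild type (58.8% of all genes). A peak in at least 1 of the 4 was held by 67.8% of all genes. Both BAP1 knockout libraries marked 8 of 9 (29.6% of all genes), and both wild-type libraries the same 8 (14.5%). The gene without a peak in the first libraries was Nr0b1. No gene of the 9 was marked in both BAP1 knockout and no wild-type library (0.11% of all genes), and none in the mirror case (0.0%). The RNF2 knockout library listed 0 peaks at them and the BAP1 ChIP of BAP1 knockout cells likewise 0.

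**Figure D2:**
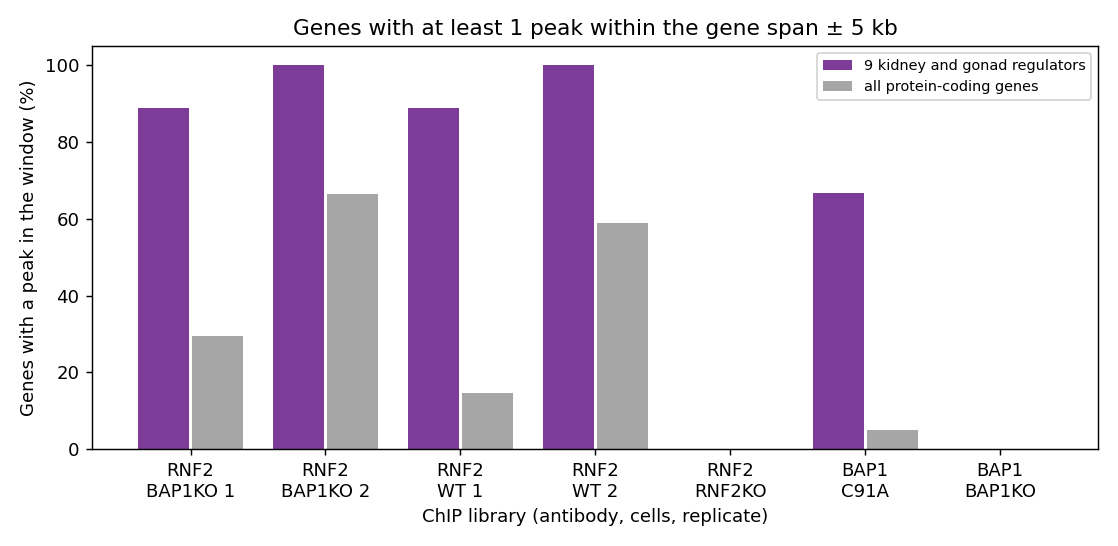
Share of genes (vertical axis, percent) with at least 1 peak in the gene span plus or minus 5 kb, for each of the 7 ChIP libraries. Purple bars are the 9 kidney and gonad regulators and grey bars all 21775 protein-coding genes. The purple bars stand above the grey ones in the 4 RNF2 libraries of BAP1 knockout and wild-type cells and in the BAP1 library of C91A cells, and are at 0 in both controls.

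The mesoderm factors Osr1, Wt1, Emx2 and Osr2 had the longest RNF2-covered length of the set, a measure that cannot exceed the window. Osr1, at chr12:9574442-9581500, had 15.4 and 16.3 kb covered by RNF2 peaks in the 2 BAP1 knockout libraries, against 14.7 and 16.6 kb in the 2 wild-type libraries. This is 90.1% and 95.4% of its 17.1 kb window in BAP1 knockout, and 86.2% and 97.2% in wild type, so that the domain ran past both ends of the gene in every library. Wt1, at chr2:105126529-105173614, had 13.6 and 15.3 kb in BAP1 knockout and 13.1 and 15.9 kb in wild type. Its domain lay over the lower-coordinate end of the 47.1 kb gene, which faces the non-coding gene Wt1os, and left most of the gene body without a peak. With distances counted from that end and negative outside the gene, the peak ran from -4824 to 8809 bp in the first BAP1 knockout library, and from -4494 to 8641 bp in the first wild-type library. Its summits lay 799 and 1041 bp inside in BAP1 knockout and 580 and 1026 bp inside in wild type.

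Emx2, a homeobox gene at chr19:59458690-59465357, had 12.5 and 16.7 kb covered in BAP1 knockout and 9.4 and 16.7 kb in wild type. In both second libraries 1 peak spanned the whole 16.7 kb window. Beyond the window that peak measured 17.3 kb in BAP1 knockout and 21.9 kb in wild type. In the first libraries the same stretch was broken into 6 peaks in BAP1 knockout and 4 in wild type, the widest of 6.06 kb and 5.36 kb, and a gap remained over the 3′ end of the gene. Part of the domain lies over the antisense gene Emx2os, and a peak there cannot be assigned to one of the 2 genes. Osr2, the paralogue of Osr1, at chr15:35296098-35303305, had 11.4 and 12.1 kb in BAP1 knockout and 10.8 and 12.9 kb in wild type.

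Gdnf and Nr5a1 held domains that covered 1 end of the gene. At Gdnf, at chr15:7810048-7837580, RNF2 covered 7.57 and 9.54 kb in BAP1 knockout and 7.02 and 9.43 kb in wild type. The domain took in both annotated starts and both promoter windows in all 4 libraries, with summits between 649 and 814 bp inside the outer start. At Nr5a1, at chr2:38692656-38714542, it covered 4.7 and 8.2 kb in BAP1 knockout and 3.74 and 9.29 kb in wild type. Its main peak sat inside the upper-coordinate end, with summits at -3685 and -3101 bp from that end (negative inside the gene) in BAP1 knockout and at -3725 and -3121 bp in wild type. Small peaks more than 5 kb from it occurred in the second libraries of both genotypes. The pseudogene Adgrd2-ps also falls in the window.

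Sall1, Ret and Nr0b1 had the shortest RNF2-covered length of the set. Sall1, a zinc-finger factor at chr8:89027242-89044162, had 0.862 and 7.97 kb covered in BAP1 knockout and 3.16 and 7.27 kb in wild type, so the first and second library of each genotype differed by more than the genotypes did within either replicate number. Its strongest summit stayed within 1043 to 1113 bp upstream of the outermost start in all 4 libraries, where the non-coding gene Gm3134 also lies. Ret, at chr6:118151748-118197744, had 2.01 and 3.16 kb in BAP1 knockout and 1.08 and 3.17 kb in wild type, in a main peak at the upper-coordinate end of the gene. The ligand gene Gdnf had more covered length than the receptor gene Ret in each of the 4 libraries. Nr0b1, at chrX:86191775-86195947, had no listed peak in either first library. In the second libraries 605 bp were covered in BAP1 knockout, by 2 peaks inside the start of the gene, and 886 bp in wild type, by 1 peak across the start.

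**Figure D3:**
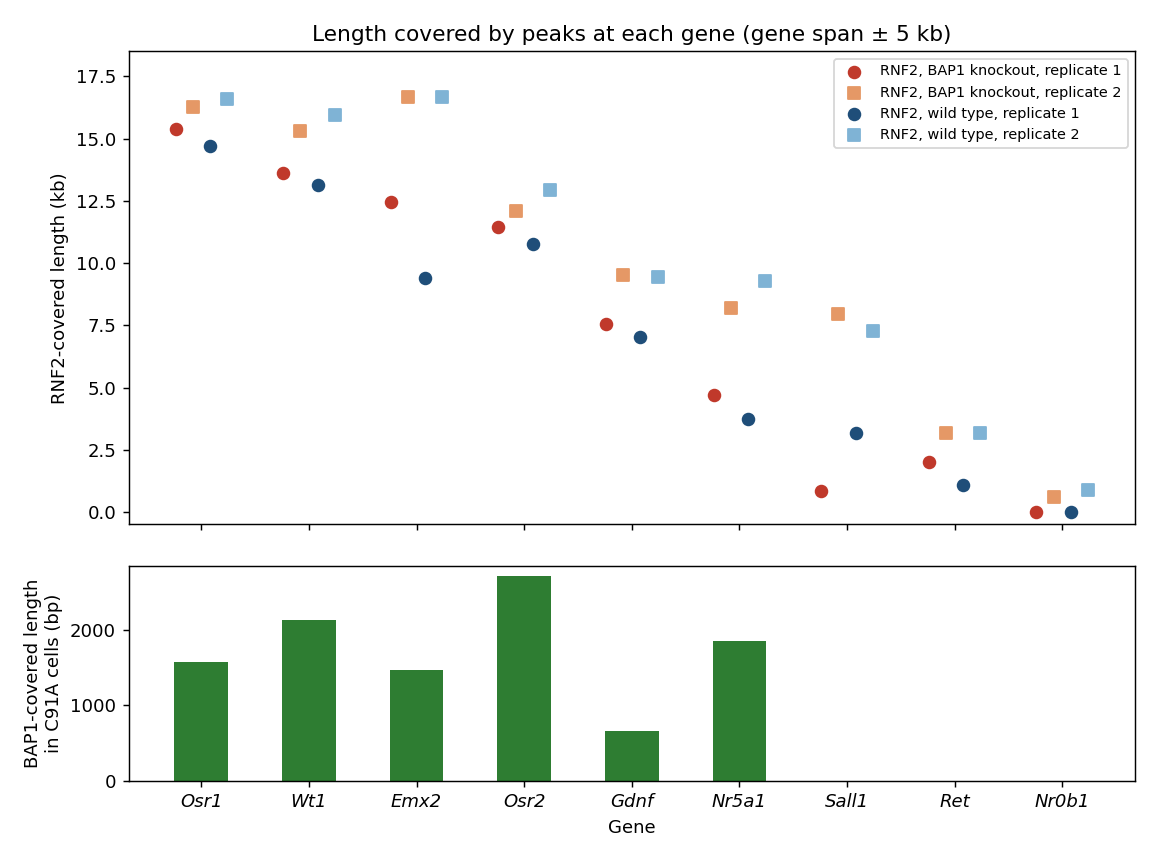
Upper panel: length covered by RNF2 peaks in the gene span plus or minus 5 kb (vertical axis, kb), with 1 point per library for the 2 BAP1 knockout and 2 wild-type libraries. Lower panel: length covered by BAP1 peaks in C91A cells (bp, 1 library). Genes run by the wild-type mean, from Osr1 to Nr0b1, and the squares of the second libraries lie above the circles of the first at each gene.

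Ordered by their wild-type mean the genes ran Osr1 (15.6 kb), Wt1 (14.5 kb), Emx2 (13.0 kb), Osr2 (11.8 kb), Gdnf (8.23 kb), Nr5a1 (6.52 kb), Sall1 (5.21 kb), Ret (2.13 kb) and Nr0b1 (0.443 kb). In BAP1 knockout the means were 15.8 kb for Osr1, 14.5 kb for Wt1, 14.6 kb for Emx2, 11.8 kb for Osr2, 8.55 kb for Gdnf, 6.45 kb for Nr5a1, 4.42 kb for Sall1, 2.58 kb for Ret and 0.302 kb for Nr0b1. The SD between the 2 wild-type libraries was 1.32 to 5.14 kb except at Nr0b1, where it was 0.626 kb. Neighbours in this order overlapped in their wild-type library values except at 2 steps. Both Osr2 values lay above both Gdnf values, and both Ret values above both Nr0b1 values. Sall1 and Ret overlapped narrowly, at 3156 bp for the lower Sall1 value and 3170 bp for the upper Ret value. Against all protein-coding genes the upper 4 stood far out: 0.321% to 0.877% of genes had at least as much covered length in the first wild-type library, and 0.468% to 0.997% in the second. For Gdnf the shares were 1.14% and 1.75%, for Nr5a1 1.93% and 1.81%, for Sall1 2.29% and 2.61%, and for Ret 7.01% and 9.67%. In BAP1 knockout Sall1 stood at 20.4% and 3.63%, and Nr0b1 at 53.9% in the second library.

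The peak maps place these domains on each gene and show that the second libraries extend and join the peaks of the first.

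**Figure D4:**
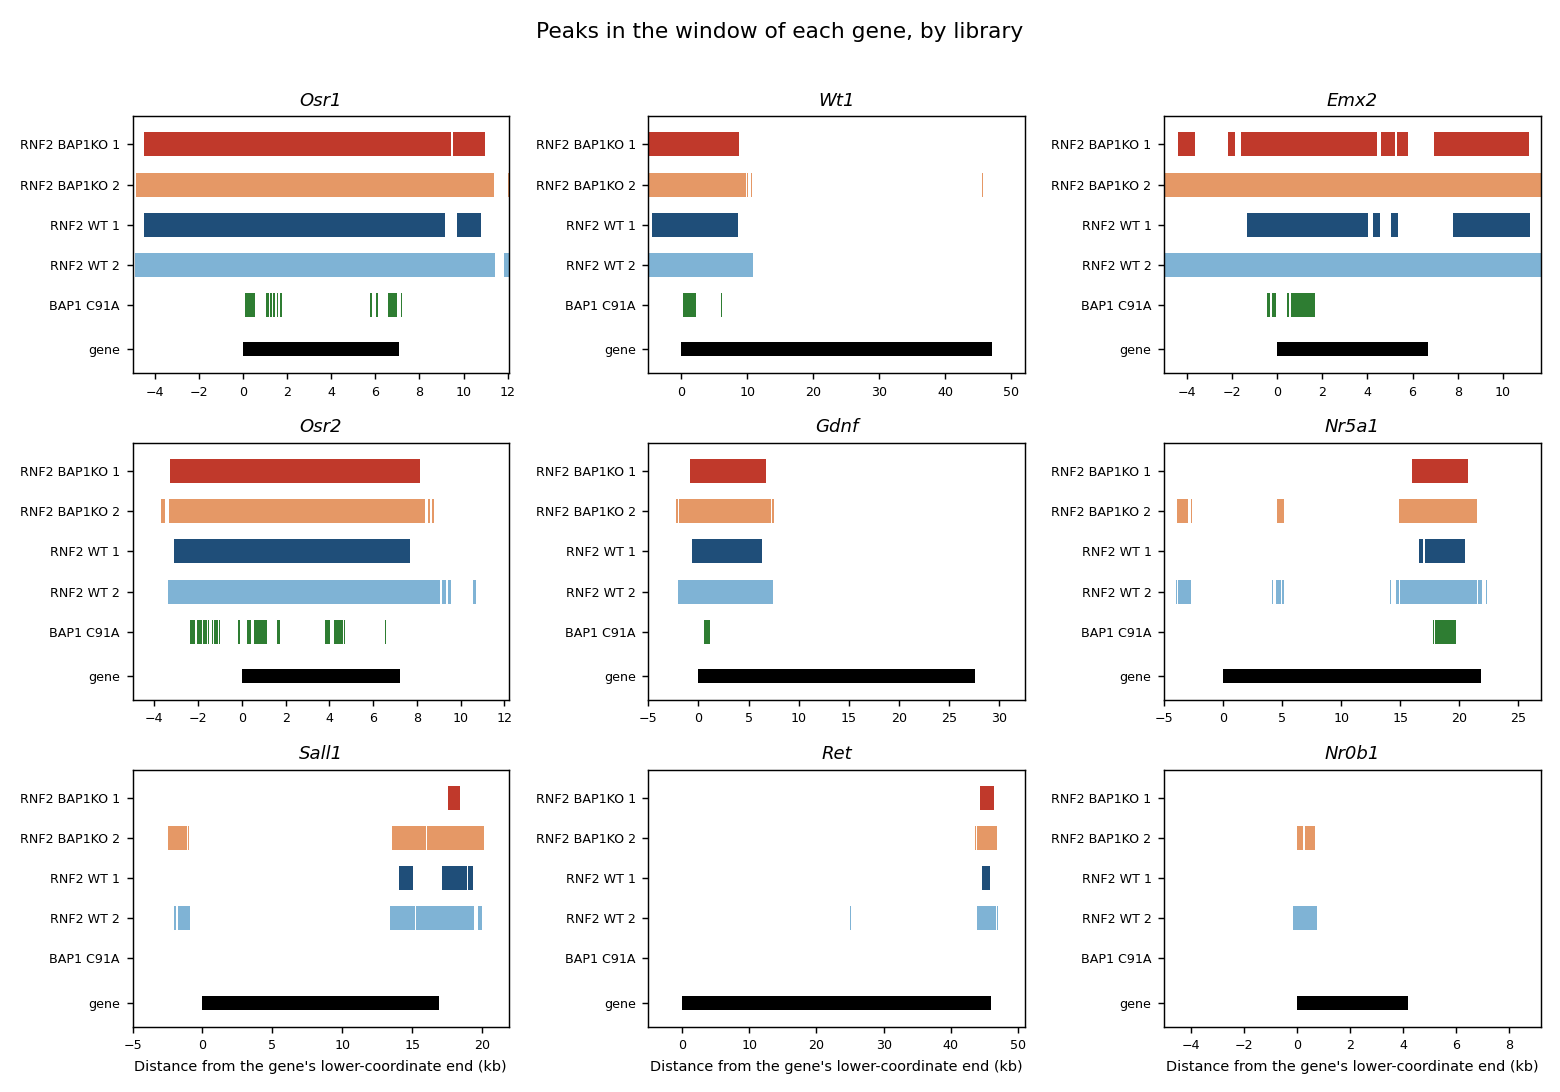
Peaks in the window of each of the 9 genes, as bars along the distance from the gene's lower-coordinate end (horizontal axis, kb, its range set by the gene's length). Rows from the top are the 2 RNF2 libraries of BAP1 knockout, the 2 of wild type, and BAP1 in C91A cells, with the gene span in black. The green BAP1 bars fall inside the RNF2 bars of all 4 libraries at 6 genes, and Sall1, Ret and Nr0b1 have none.

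The authors' fold enrichment of each gene's best RNF2 peak, which is the summit over the local background and is ranked here within its own list, was highest at the 6 genes with the longest coverage in the first libraries. In the first BAP1 knockout library it was 35.2 at Emx2, 31.7 at Osr1, 22.9 at Nr5a1, 22.5 at Osr2, 22.1 at Wt1 and 20.4 at Gdnf, all within the upper 4.78% of that list. In the first wild-type library it was 13.1 at Emx2, 21.3 at Osr1, 16.1 at Nr5a1, 14.7 at Osr2, 22.5 at Wt1 and 16.6 at Gdnf, all within the upper 5.0%. Ret stood at 8.77 (upper 25.7% of the list) in that BAP1 knockout library and at 3.42 (upper 66.5%) in that wild-type library. Sall1 stood at 3.81 (upper 64.0%) and at 5.12 (upper 34.5%) in the same order. In the second libraries Ret had 20.5 in BAP1 knockout (upper 2.82% of its list) and 15.9 in wild type (upper 5.15%), and Nr0b1 had 3.8 (upper 41.2%) and 4.34 (upper 27.8%).

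At 6 of the 9 genes the summit in the second libraries was as high as the peak calling allowed. With 1 tag kept per position and strand and an extension of 100 bp, no more than 200 fragments can overlap a base, and the summit pileup was exactly 200 at Wt1, Osr1, Osr2, Emx2, Nr5a1 and Gdnf in both genotypes. Over the whole lists 800 peaks in BAP1 knockout and 512 in wild type stood at that value. The fold enrichments of these 6 genes in the second libraries, 14.8 to 22.0 in BAP1 knockout and 14.5 to 20.2 in wild type, can thus differ only through the local background. No summit reached its ceiling in the first libraries.

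The comparison of BAP1 knockout with wild type asks whether RNF2 spreads at these genes once its opponent is gone. Covered length was mostly longer in BAP1 knockout in the first pair of libraries and mostly shorter in the second. In the first pair 7 of 9 genes had more in BAP1 knockout (28.7% of all genes) and 1, Sall1, had less (1.18% of all genes). The differences were 498 bp at Wt1, 549 bp at Gdnf, 664 bp at Osr1, 671 bp at Osr2, 927 bp at Ret, 956 bp at Nr5a1 and 3069 bp at Emx2. The difference at Sall1 was -2294 bp. In the second pair 2 of 9 had more in BAP1 knockout (58.6% of all genes), Gdnf by 108 bp and Sall1 by 702 bp. In BAP1 knockout 6 had less (9.0% of all genes), with differences from -9 bp at Ret to -1091 bp at Nr5a1, and Emx2 was covered to the limit of its window in both.

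Gdnf alone had more RNF2-covered length in BAP1 knockout in both pairs, 1 of 9 genes (24.7% of all genes), and 0 of 9 had less in both (0.468%). Which gene this is depends on the setting. At a −log10 q threshold of 5 or of 10, and with lists of equal length, it was Nr5a1 and Ret, within 1 kb of the gene ends Ret, and in the gene span without flanks none. Among the 3082 genes with a peak in all 4 libraries, 93.8% had more in BAP1 knockout in the first pair, 73.3% in the second and 70.6% in both. Less in BAP1 knockout was seen at 5.68% in the first pair, 25.1% in the second and 2.5% in both. Of the 8 regulators in that class 7 had more in the first pair, 2 in the second and 1 in both, and 1 had less in the first, 5 in the second and 0 in both. Their median difference was 667.5 bp in the first pair and -159.0 bp in the second, beside 872.5 bp and 347.5 bp over the 3082. Over all 9 genes the median was 664.0 bp in the first pair and -281.0 bp in the second, beside 0.0 and 168.0 bp over all genes. The count of 1 rests on asking for both pairs. It is 7 without the second library of either genotype and 2 without the first of either.

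At each of the 9 genes the second library of either genotype had more covered length than the first. A comparison that ignores the replicate number could therefore hardly separate the genotypes, and nothing is read from it. The BAP1 knockout values of both libraries lay above both wild-type values at 0 of 9 genes (3.7% of all genes, and 3.5% of those with a peak in all 4 libraries), and below at 0 of 9 (0.0%). A two-sided exact permutation test of covered length gave p = 0.667 at Gdnf and p = 1.0 at the 8 others, with n = 2 libraries per genotype, a design whose smallest possible p is 0.333. The mean difference between genotypes ran from -0.796 kb at Sall1 to 1.53 kb at Emx2.

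Most bases covered in wild type at these genes were also covered in BAP1 knockout. The share of bases was not computed over all genes. Counted by gene, 3082 of the 3163 with RNF2 in both wild-type libraries also held it in both BAP1 knockout libraries. Where peaks fill most of the window, as at Osr1, a high share is forced. In the first pair 97.6% to 100.0% of the bases covered in wild type were also covered in BAP1 knockout at 7 genes, and 27.3% at Sall1. In the second pair it was 84.3% to 100.0% at 8 genes and 68.3% at Nr0b1. The other way round, the share of bases covered in BAP1 knockout that were also covered in wild type was lower at 3 genes of the first pair, with 53.9% at Ret, 73.6% at Emx2 and 79.6% at Nr5a1. It was 92.8% to 100.0% at the other 5 genes with a peak there, and 87.0% to 100.0% at the 9 genes in the second pair.

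**Figure D5:**
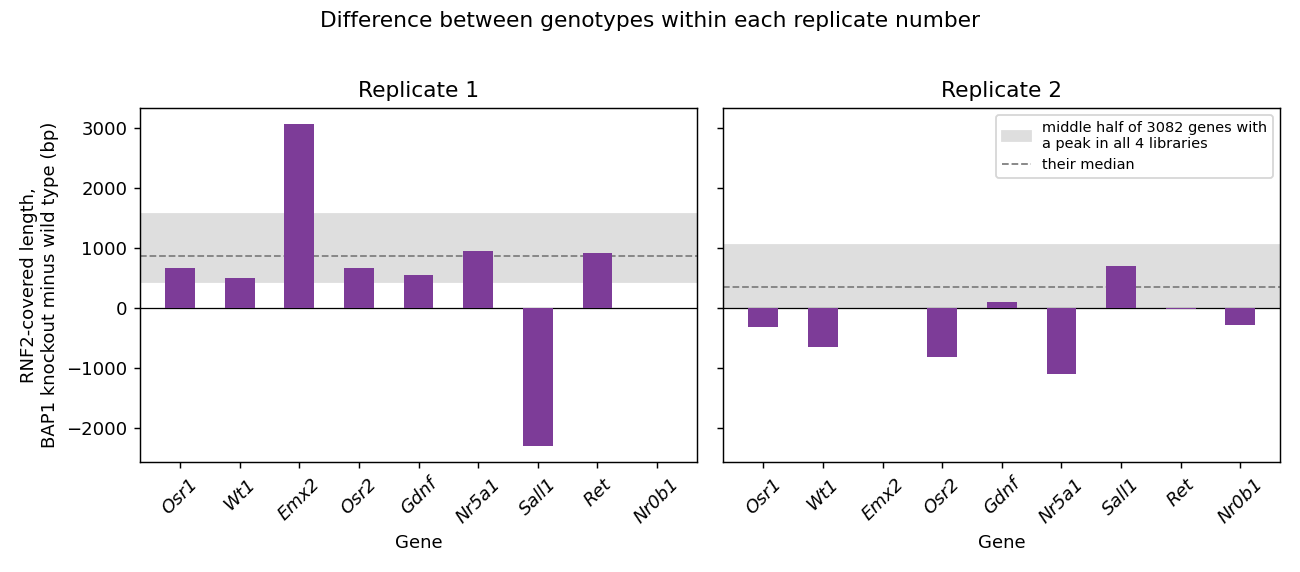
RNF2-covered length in BAP1 knockout minus wild type (vertical axis, bp) for each of the 9 genes, within the first (left) and second (right) replicate number. The grey band runs from the lower to the upper quartile of the 3082 genes with a peak in all 4 libraries and the dashed line their median. Bars are above 0 at 7 genes on the left and at 2 on the right, and Sall1 changes sign between the panels.

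BAP1 was found in C91A cells at the 6 genes with the longest RNF2 coverage, and the other 3 had no listed peak. These are 6 of 9, beside 5.08% of all protein-coding genes. All 6 also held RNF2 in both wild-type libraries, a combination seen at 2.43% of all genes. BAP1 peaks covered 2716 bp at Osr2, 2137 bp at Wt1, 1849 bp at Nr5a1, 1579 bp at Osr1, 1475 bp at Emx2 and 658 bp at Gdnf. Sall1, Ret and Nr0b1 had none listed. The control ChIP in BAP1 knockout cells held 0 peaks at the 9 genes (0.156% of all genes), from a library of 32.5 M tags against 415 M in C91A cells. Each group has 1 library, so the difference has no replicate check.

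The shape of BAP1 binding differed between the genes. At Nr5a1 and Wt1 it was concentrated in 1 broad peak, of 1794 bp (fold enrichment 5.25) and 1787 bp (4.85), which are within the widest 0.418% and 0.459% of the BAP1 list. The Nr5a1 summit lay at -3603 bp from the upper-coordinate end, among the RNF2 summits there. Gdnf had a single peak of 658 bp (4.6) whose summit, 765 bp inside the outer start, lay among those of RNF2. Emx2 had 4 peaks, the widest of 1056 bp. Osr1 and Osr2 instead held 10 and 15 short peaks spread over the domain, with best fold enrichments of 3.99 and 3.84. At Osr1 they formed 1 group near each end of the gene.

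All 37 BAP1 peaks at the 6 genes lay entirely inside RNF2 peaks, in both BAP1 knockout and both wild-type libraries. RNF2 peaks filled 86.2% to 97.2% of the window at Osr1, 62.5% to 75.1% at Osr2 and 56.4% to 100.0% at Emx2. At these genes a BAP1 peak had little room to lie elsewhere. Over the whole list of C91A cells 79.7% and 93.2% of the 2395 BAP1 peaks met an RNF2 peak of BAP1 knockout (first and second library), and 77.2% and 88.8% one of wild type. These shares count any overlap, a looser rule than lying entirely inside. No library maps RNF2 in C91A cells or BAP1 in wild-type cells. A covered length of at least 5 kb in both wild-type libraries, a limit set after the values were seen, was reached by Wt1, Osr1, Osr2, Emx2 and Gdnf. These are 5 of the 9 genes (1.46% of all genes), and the same 5 reached it in both BAP1 knockout libraries (2.55% of all genes). Covered length sums all peaks of the window, so it need not be 1 domain. All 5 had BAP1. Just inside the limit, Gdnf had 7.02 kb in its lower wild-type library, and just outside it Nr5a1 had 3.74 kb. Among the 317 genes with such a covered length in both wild-type libraries 88.0% had a BAP1 peak, and among the 2846 others with RNF2 in both 8.82% had one. The BAP1 calls were of modest strength: with −log10 q of at least 5 they stayed at Wt1, Emx2, Nr5a1 and Gdnf, and with at least 10, which left 24 of the 2395 peaks, at 0 of the 9 genes.

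Other genes of the kidney programme were mostly bound too. Of 28 further kidney development genes 27 held RNF2 in both BAP1 knockout libraries, 23 in both wild-type libraries, and 16 held BAP1 in C91A cells, beside the 29.6%, 14.5% and 5.08% of all genes given above. The longest coverage was at Pax2, the factor of the nephric duct (25382 and 28670 bp in BAP1 knockout, 23960 and 27774 bp in wild type), and at Gata3 (21.0 and 24.3 kb in BAP1 knockout, 20.4 and 23.9 kb in wild type). Hoxd11 was covered over its whole window of 17459 bp in each library, so its full width was not measured, and Lhx1 had 16602 and 17458 bp in BAP1 knockout and 15003 and 17478 bp in wild type. More RNF2-covered length in BAP1 knockout in both pairs was seen at 12 of 28 (24.7% of all genes), and at 9 of the 23 with a peak in all 4 libraries (70.6% of all such genes). The 12 were Pax2, Six2, Eya1, Foxc2, Tcf21, Gata3, Bmp4, Bmp7, Grem1, Spry1, Etv4 and Etv5. Foxd1 had less in both, 1 of 28 (0.468% of all genes) and 1 of the 23 (2.5% of all such genes). Etv4 and Etv5, known as targets of RET signalling, and Spry1, its inhibitor, held no RNF2 in the first wild-type library, nor did Itga8 and Meox1. Only 14.5% of all genes held a peak in that library. In the second wild-type library Etv4 had 1053 bp, Etv5 797 bp and Spry1 1486 bp covered.

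Of 18 further genes of gonad development and sex determination, 14 held RNF2 in both BAP1 knockout libraries and 12 in both wild-type libraries, and 8 held BAP1, beside 29.6%, 14.5% and 5.08% of all genes. Gata4, a factor of the genital ridge, had the longest coverage (22.0 and 29.0 kb in BAP1 knockout, 23.5 and 31.3 kb in wild type). Lhx9 (12.1 and 15.6 kb, and 10.7 and 15.1 kb), Dmrt1, a testis factor (9.91 and 13.7 kb, and 9.72 and 12.9 kb), and Foxl2, an ovary factor (8.21 and 11.6 kb, and 7.88 and 12.1 kb), followed in the same order of genotypes. Lhx9, Sox8, Dmrt1, Rspo1, Wnt4, Amh, Dhh and Nr5a2 had more in BAP1 knockout in both pairs, and Gata4, Cbx2 and Sox9 had less in both. These are 8 of 18 with more (24.7% of all genes), and 6 of the 12 with a peak in all 4 libraries (70.6% of all such genes). The genes with less are 3 of 18 (0.468% of all genes), and 3 of the 12 (2.5% of all such genes). Ptgds held no peak in any of the 4 libraries. Nr5a2, the paralogue of Nr5a1, had 3.93 and 7.28 kb in BAP1 knockout and 0.526 and 5.32 kb in wild type, and no BAP1.

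Of 8 steroidogenesis genes, several of them targets of Nr5a1 protein in the adrenal and gonad, 0 held RNF2 in both BAP1 knockout libraries (29.6% of all genes) and 0 in both wild-type libraries (14.5%). Star, Cyp11b1, Cyp17a1, Cyp19a1, Cyp21a1 and Hsd3b1 held no peak in any of the 4. Of 10 genes of differentiated kidney 5 were bound in both BAP1 knockout libraries (29.6% of all genes) and 3 in both wild-type libraries (14.5%), these being Lrp2, Podxl and Aqp2. Lrp2, an endocytic receptor of the proximal tubule, had 5.78 and 7.55 kb in BAP1 knockout and 5.28 and 6.5 kb in wild type. Podxl had 3.56 and 7.56 kb in BAP1 knockout and 2.59 and 6.06 kb in wild type, and the water channel gene Aqp2 had 2.17 and 5.82 kb and 0.664 and 5.35 kb in the same order. Umod and Slc12a3 held none. Nphs1, Podxl, Synpo, Aqp2 and Lrp2 had more in BAP1 knockout in both pairs, 5 of 10 (24.7% of all genes), among them all 3 with a peak in all 4 libraries (70.6%). Lrp2 alone of the 10 held BAP1.

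Among the partners of Gdnf and Ret, 6 of 7 GDNF family ligands and co-receptors held RNF2 in both BAP1 knockout libraries (29.6% of all genes), 4 in both wild-type libraries (14.5%) and 2 held BAP1 (5.08%). Gfra1, the co-receptor for GDNF, had 4.57 and 5.33 kb in BAP1 knockout and 3.32 and 5.43 kb in wild type. This is more than Ret in each library, but in a window of 230366 bp against 56.0 kb for Ret. Gfra2 (3.87 and 5.1 kb, and 3.49 and 6.49 kb) and Gfra4 (1.76 and 3.51 kb, and 1.3 and 3.71 kb) each held a single BAP1 peak of 62 bp. The ligand gene Nrtn had 3.08 and 8.34 kb in BAP1 knockout and 1.0 and 3.92 kb in wild type. Nrtn, the ligand gene Artn and the co-receptor gene Gfra3 had more in BAP1 knockout in both pairs, 3 of 7 (24.7% of all genes), and 1 of the 4 with a peak in all 4 libraries did (70.6%).

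Of 8 paralogues of the 9 genes, all 8 held RNF2 in both BAP1 knockout libraries (29.6% of all genes) and 6 in both wild-type libraries (14.5%). The 8 were Egr1 to Egr4, Emx1, Sall2, Sall3 and Sall4. The paralogues Nr5a2 and Nr0b2 were counted with the gonad genes instead. Nr0b2 had no peak in either BAP1 knockout library and 136 bp covered in the second wild-type library. BAP1 was held by Egr3, Emx1 and Sall3 (5.08%). Emx1 had 8.27 and 11.9 kb in BAP1 knockout and 6.79 and 11.8 kb in wild type. Sall3 had 6.75 and 16.9 kb in BAP1 knockout and 10.5 and 19.5 kb in wild type, less in both pairs. That is 1 of 8 (0.468% of all genes), and 1 of the 6 with a peak in all 4 libraries (2.5% of all such genes). Egr3 (7.8 and 10.6 kb, and 7.8 and 10.1 kb) and Egr2 (6.53 and 7.91 kb, and 4.52 and 8.18 kb) were bound in all 4. Sall4, a factor of the pluripotent state, had 0.466 and 4.17 kb in BAP1 knockout, and in wild type no peak in the first library and 0.472 kb in the second. Egr1, Egr3, Egr4, Emx1, Sall2 and Sall4 had more in BAP1 knockout in both pairs, 6 of 8 (24.7% of all genes), as did 4 of the 6 with a peak in all 4 libraries (70.6%).

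The genes most like each regulator in RNF2-covered length, by Euclidean distance of log2(covered bp + 1) over the 4 RNF2 libraries and more than 100 kb away, were Dmrta2 for Wt1 (distance 0.04), Pax9 for Osr1 (0.06), Alx4 for Gdnf (0.06), Foxd2 for Osr2 (0.09), Nsg1 for Ret (0.09), Pou4f1 for Emx2 (0.16), Slitrk5 for Nr5a1 (0.2) and Ntn1 for Sall1 (0.7). BAP1, which the distance did not use, covered 2010 bp at Dmrta2, 2213 bp at Pax9, 2699 bp at Foxd2 and 887 bp at Alx4. It had no listed peak at Pou4f1 and Slitrk5, unlike at Emx2 and Nr5a1, and none at Ntn1 and Nsg1, as at Sall1 and Ret.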

How the data were processed

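Peak lists of 7 ChIP libraries were used, 1 list per library and none pooled. The submitters' processing notes name GSNAP (version not given in the sources used here), MACS2 and the build GRCm38 or mm10. Per the file headers, MACS2 set each ChIP against its input with q-values cut at 0.05 and at most 1 tag kept per position and strand (version 2.1.0.20150420 for the first RNF2 and both BAP1 libraries, 2.1.1.20160309 for the others). Fragment length was estimated at 323 bp and 297 bp for the first BAP1 knockout and wild-type RNF2 libraries and at 50 bp for C91A, and fixed at 100 bp for the second RNF2 libraries and RNF2 knockout and at 147 bp for the BAP1 control. The deposited lists give pileup signal, −log10 p-value and q-value, and fold enrichment (a ratio) per peak, all as the authors' caller wrote them. Tag totals are those after filtering, per the file headers.

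Peaks were set against the RefSeq gene table of GRCm38.p6. A total of 108 protein-coding entries that start below 3 Mb, outside chromosome Y, were left out. The table gives no strand, so ends are named by coordinate unless the promoter table gives one. Covered length is the sum of peak bases inside the window. Overlap was computed in Python 3.11.15 with pandas 2.3.3 and checked on simulated peaks of known width. The unnumbered library of each genotype was taken as the first replicate. P-values measure the spread between these samples, which may be technical. A list without a peak shows no call at that depth and not absence of the protein. All 9 genes are named. Of each further list up to 4 genes bound in all 4 libraries are named, with those bound in none or differing in both pairs. The 9 genes and the lists were chosen with earlier results of these data known. Alternatives were other thresholds, windows, overlap rules, list lengths and left-out libraries.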

Additional observations from a re-analysis of the deposited data

How the results depend on the processing

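The number of genes with RNF2 in both BAP1 knockout libraries (8) and in both wild-type libraries (8) moved by no more than 1 under each alternative. Leaving out 1 library gave 8 to 9 for BAP1 knockout and 8 to 9 for wild type. The number with BAP1 in C91A cells (6) was 4 to 6 except with −log10 q of at least 10, where it was 0. The number with more RNF2-covered length in BAP1 knockout in both pairs (1, Gdnf) was 2 with −log10 q of at least 5, 2 with at least 10 and 2 with each RNF2 list shortened to 4038 peaks. In these 3 settings the genes were Nr5a1 and Ret, without Gdnf. It was 0 without flanks around the gene span, and 1 within 1 kb of the gene ends, where the gene was Ret. Leaving out 1 library gave 2 to 7. The median over the genes of covered length, BAP1 knockout minus wild type, was -67.5 bp, and -1146.5 to 1328.5 bp with 1 library left out, so its sign rests on which libraries are used. The SD of this median between the 2 pairs was 668 bp. It was 147.5 bp with flanks of 10 kb, 135.5 bp with −log10 q of at least 5 and 50.0 bp with at least 10. Averaging the differences within replicate numbers is the same arithmetic as the difference of means, so its median of -67.5 bp is no separate check. An exact sign-flip test over 2 pairs gave p = 0.5 at Gdnf, the smallest it can give, and p = 1.0 at the others. Over 21775 genes the deviations of same-numbered libraries correlated (r = 0.5, across genes, which are not replicates). Genes without any peak and the greater depth of both second libraries enter this value, so it cannot show a pairing. With 2 pairs and no label of a shared day or culture the numbers do not pair the samples. At the depth of the first libraries Nr0b1 had no listed peak in either genotype.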
